A study of Homo sapiens with 12 samples.

Results

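Genes of the pre-mRNA splicing machinery were examined in 2 human neuroblastoma cell lines, BE(2)-C and Kelly, that were treated with the BET bromodomain inhibitor JQ1 or with its solvent. The members were all genes whose symbol in the array's annotation begins with SRSF and a number, HNRNP, SF3A, SF3B, SNRP, U2AF or PRPF, pseudogenes included. There were 68 of them among the 18132 genes measured, read by 224 of 44988 probe sets that name 1 gene. They fall into 12 SNRP genes, 9 SF3A and SF3B genes, 2 U2AF genes, 11 PRPF genes, 12 SR genes and 22 hnRNP genes. The rule uses names only, though it was set with earlier results of these data known. The groups were Kelly with 1 µM JQ1, Kelly with DMSO, BE(2)-C with 1 µM JQ1 and BE(2)-C with DMSO, each treated for 24 h and each with 3 Affymetrix PrimeView arrays of total RNA. Both are established cell lines, and the labels do not say whether the replicates of a group were separate cultures, so the p-values rest on array-to-array spread that may be technical only. JQ1 occupies the acetyl-lysine pocket of BET proteins, which bind acetylated chromatin and promote transcription.

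Introns are removed by the spliceosome, which assembles anew on each intron from small nuclear ribonucleoproteins (snRNPs). The Sm proteins, named SNRP, form a ring around most of the spliceosomal snRNAs, and other SNRP proteins belong to the U1 or the U2 snRNP alone. The U2AF and SF3 proteins recognise the 3' splice site and the branch point, and the PRPF factors act mostly in the tri-snRNP and in the activation of the complex. SR proteins bind exons and generally favour their use, while hnRNP proteins coat nascent transcripts and often oppose it. Genes of both families are known for splicing their own transcripts into forms that are degraded, so that several probe sets of a gene can read different transcripts.

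The arrays were first checked against their labels. HEXIM1, which inhibits the elongation factor P-TEFb and is a common marker of BET inhibitor action, lay at 11.24 to 11.35 in Kelly with JQ1, against 9.74 to 10.03 with DMSO, on the log2 intensity scale used throughout. Its BE(2)-C values were 10.74 to 11.06 with JQ1, against 8.34 to 8.91 with DMSO. MYCN, which is amplified in these lines, lay at 13.47 to 13.58 with JQ1 in Kelly, against 13.87 to 13.88 with DMSO. BE(2)-C cells had 13.16 to 13.31 with JQ1, against 13.52 to 13.64 with DMSO. Of the sympathoadrenal neuroblast markers 8 were measured, at 7.05 to 14.16 over all arrays. Haematopoietic markers lay at 3.74 to 6.82, epithelial markers at 4.02 to 8.50 and Schwann cell or fibroblast markers at 3.53 to 7.12. The 23 probe sets for sequences absent from the human genome, which show the background, had array medians of 3.91 to 4.55. The brightest of them read 10.04 to 11.78 by array, so these medians are not a floor shared by all probe sets. Of the members, 64 had a mean of at least 6. The other 4 were HNRNPCL1 (4.21), HNRNPCL2 (3.92), HNRNPA1L2 (5.04) and SNRPD2P2 (5.11), all copies of other members.

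The 7 members that passed the test of JQ1 against DMSO averaged over the lines, described below, are shown here by the 150 bases before their RefSeq transcription start, since they are the members the results turn on. The sequences are from the GRCh38.p14 table, 5′ to 3′ on the gene's strand, and capitals mark matches to 4 motifs on either strand: CACGTG, the E-box that MYC and MAX proteins read, CCAAT, read by NF-Y, CCGGAAG, read by ETS family factors, and GGGCGG, the GC box read by SP1. For SRSF8, which has 2 listed starts, the first was used.
SNRPE (chr1:203861697-203861846, plus strand): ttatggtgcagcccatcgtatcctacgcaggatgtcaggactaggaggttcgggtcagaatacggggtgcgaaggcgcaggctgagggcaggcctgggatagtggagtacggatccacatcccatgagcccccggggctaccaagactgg
SNRPF (chr12:95858802-95858951, plus strand): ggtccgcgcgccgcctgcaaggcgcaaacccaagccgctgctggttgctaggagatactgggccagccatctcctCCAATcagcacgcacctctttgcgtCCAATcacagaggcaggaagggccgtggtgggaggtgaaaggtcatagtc
SNRPC (chr6:34757355-34757504, plus strand): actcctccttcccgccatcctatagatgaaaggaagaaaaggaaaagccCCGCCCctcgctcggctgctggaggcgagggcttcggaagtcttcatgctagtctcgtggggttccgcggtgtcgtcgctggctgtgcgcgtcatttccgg
SF3A3 (chr1:37990023-37990172, minus strand): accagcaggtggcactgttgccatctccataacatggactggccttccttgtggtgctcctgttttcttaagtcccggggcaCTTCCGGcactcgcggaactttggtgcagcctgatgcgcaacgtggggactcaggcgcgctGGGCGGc
PRPF38B (chr1:108692160-108692309, plus strand): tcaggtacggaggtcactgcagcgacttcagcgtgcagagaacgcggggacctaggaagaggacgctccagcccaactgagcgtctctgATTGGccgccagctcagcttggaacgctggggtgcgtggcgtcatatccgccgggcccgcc
SRSF8 (chr11:95066727-95066876, plus strand): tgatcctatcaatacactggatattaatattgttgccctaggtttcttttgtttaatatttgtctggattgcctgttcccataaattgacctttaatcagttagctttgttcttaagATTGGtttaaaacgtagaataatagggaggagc
HNRNPLL (chr2:38602929-38603078, minus strand): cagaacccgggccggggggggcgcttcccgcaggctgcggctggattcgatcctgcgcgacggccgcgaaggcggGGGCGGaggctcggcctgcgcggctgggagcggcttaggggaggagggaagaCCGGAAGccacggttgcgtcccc
In the 250 bases before the start, 0 of these 7 promoters held CACGTG. SNRPF, SRSF8, PRPF38B and HNRNPLL held CCAAT, and SNRPE, SNRPC, SF3A3 and HNRNPLL held CCGGAAG. Over the 81 promoters listed for 61 of the members, CACGTG was present in 9.88%, against 6.34% of all 35116 promoters of the same length. CCAAT was present in 40.7% of the members' promoters and 32.0% of all, GGGCGG in 50.6% and 42.6%, and CCGGAAG in 28.4% and 8.52%. Matches were counted for each motif on its own, also where 2 motifs overlapped, promoters of a gene with several starts share sequence, and a match describes letters only.

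The question put to these genes was whether JQ1 changed their RNA, in each line and over both. In Kelly cells 1 member fell, SNRPE, and 0 rose, with limma and Benjamini-Hochberg adjustment over all 18132 genes at a threshold of 0.05. Of all genes 6.5% passed in Kelly, 1.76% higher and 4.73% lower. In BE(2)-C 1 member rose, PRPF38B, and 0 fell, against 4.69% of all genes, 2.18% higher and 2.51% lower. Averaged over the lines 5 members fell, SNRPE, SNRPF, SNRPC, SF3A3 and SRSF8, and 2 rose, PRPF38B and HNRNPLL. In that comparison 11.1% of all genes passed, 4.02% higher and 7.04% lower. The members' counts thus lay near or below the background. Without single arrays, named by line, treatment and replicate number, the Kelly count was 5 without Kelly DMSO-3, 3 without Kelly JQ1-1 or BE(2)-C DMSO-1 and 2 without Kelly DMSO-2. The BE(2)-C count was 3 without Kelly JQ1-3 and 0 without Kelly DMSO-1, JQ1-1 or JQ1-2, BE(2)-C DMSO-2 or DMSO-3, or any BE(2)-C JQ1 array. The average count was 11 without Kelly DMSO-3, 2 without Kelly DMSO-1 or BE(2)-C DMSO-2 and 3 without BE(2)-C JQ1-1 or JQ1-2. At an unadjusted p under 0.05 there were 11 members in Kelly, 6 in BE(2)-C and 12 in the average. In bulk RNA, less of a transcript in each cell and fewer cells with it cannot be told apart.

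Member log2 fold changes ranged from -1.06 to 0.49 in Kelly and from -0.68 to 0.77 in BE(2)-C, and over all genes the standard error (SE) of a change in 1 line had a median of 0.21. More members had a negative than a positive change: 50 of 68 in Kelly, with a median of -0.16, where all genes had a median of 0.08 and 40.6% were negative. In BE(2)-C 48 of 68 were negative, with a median of -0.08 against -0.01 for all genes, of which 51.6% were negative. Among genes with a mean of at least 6 the Kelly median was -0.20 for 64 members and -0.04 for all 10877 genes. At that level 48 of the 64 members and 53.3% of all genes were negative in Kelly. In BE(2)-C these were 46 of the 64 and 49.0%. Every JQ1 array lay below every DMSO array for 9 members in Kelly (11.6% of all genes did so) and for 7 in BE(2)-C (10.7%). It lay above for 3 members in Kelly (12.1% of all genes) and for 4 in BE(2)-C (11.5%). By class the Kelly medians were -0.36 for SR, -0.33 for SF3, -0.31 for PRPF, -0.23 for SNRP, -0.10 for hnRNP and 0.04 for U2AF genes. In BE(2)-C they were -0.21 for SR, -0.13 for SF3, -0.01 for PRPF, -0.23 for SNRP, -0.06 for hnRNP and 0.00 for U2AF genes.

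**Figure D1:**
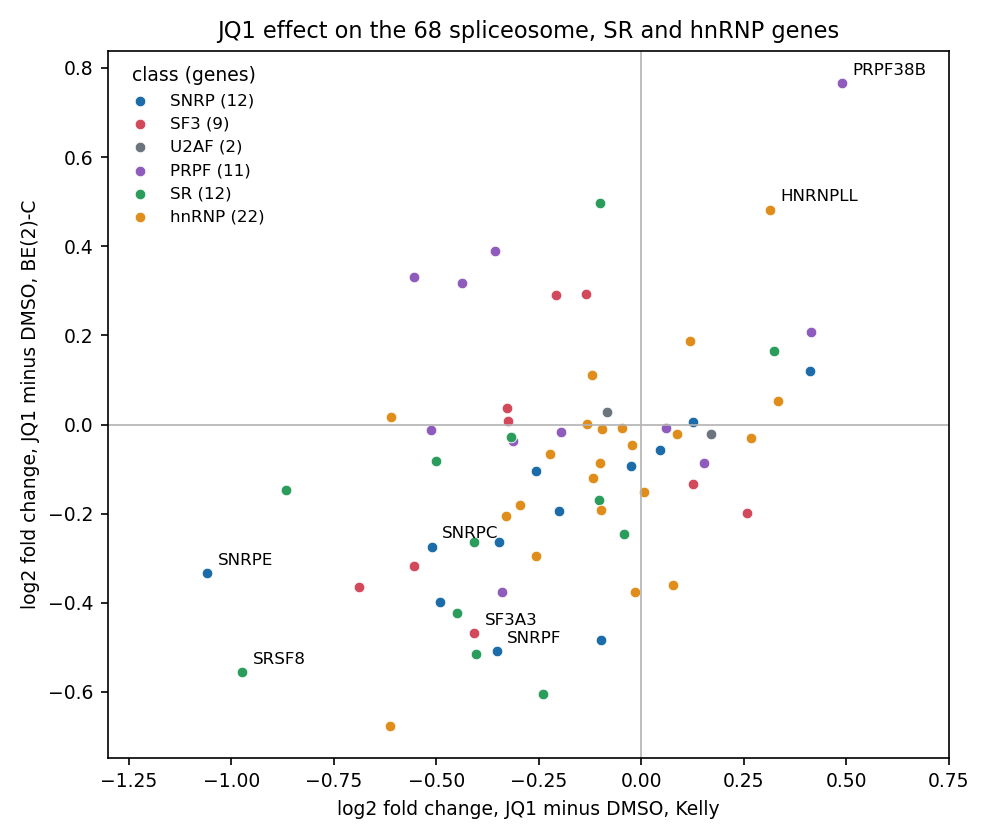
Log2 fold change of JQ1 minus DMSO in Kelly (horizontal) and BE(2)-C (vertical) for each of the 68 members, 1 point per gene, coloured by class; the 7 members that passed averaged over the lines are named. Most points lie left of and below 0, 50 of 68 negative in Kelly and 48 of 68 in BE(2)-C. Of all genes 40.6% and 51.6% were negative, and of those with a mean of at least 6, 53.3% and 49.0%.

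In Kelly the median of these changes moved with a technical measure, while most members were negative with or without it in the fit. The hybridization control signal, from bacterial transcripts added to each labelled sample, was higher with JQ1 by 1.03 in Kelly and by 0.21 in BE(2)-C on the log2 scale. In 42 of the 68 members the slope on it passed, 34 of them negative, against 53.5% of all genes, with 22.5% of all genes passing and negative. Across the 12 arrays the mean of the SR genes fell between 10.29 and 11.28. The 4 arrays with the highest control signal, Kelly JQ1-3, Kelly DMSO-3, BE(2)-C DMSO-1 and Kelly JQ1-2, had SR means of 10.37, 10.45, 10.29 and 10.56. The 4 arrays with the lowest, BE(2)-C DMSO-3, BE(2)-C JQ1-2, Kelly DMSO-2 and BE(2)-C DMSO-2, had 11.01, 10.75, 11.28 and 10.92. With that signal added to the fit, the Kelly median of the members was -0.07, against 0.03 for all genes, and 45 of 68 were negative. In BE(2)-C the median was then -0.06, with 47 of 68 negative, against -0.08 and 48 without it. Of all genes 45.45% were then negative in Kelly and 54.5% in BE(2)-C, and of those with a mean of at least 6, 50.6% and 49.7%. The median of the SR genes was then -0.06 in Kelly and -0.17 in BE(2)-C.

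**Figure D2:**
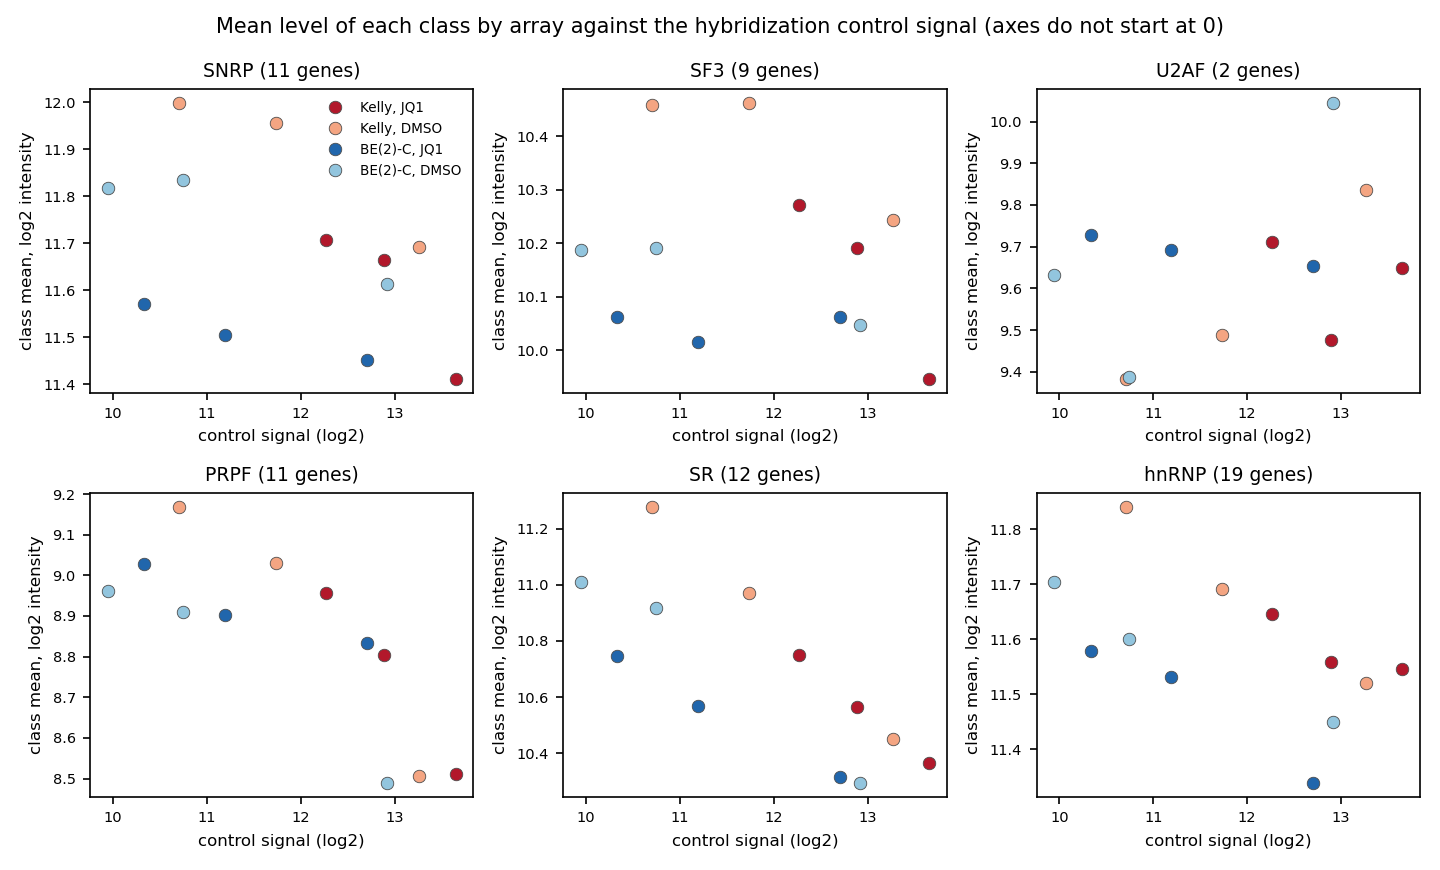
Mean log2 intensity of each class (vertical) against the hybridization control signal (horizontal, log2) for each of the 12 arrays, coloured by group; classes use members with a mean of at least 6. SR means ran from 10.29 to 11.28 over the arrays, with lower values at higher control signal in both treatments.

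Among the SNRP genes SNRPE, an Sm ring protein shared by most of the spliceosomal snRNPs, was the member that fell in Kelly. It lay at 10.80, 10.61 and 10.65 in Kelly with JQ1, against 11.78, 12.04 and 11.41 with DMSO. The groups did not overlap, and the change was 2.08-fold (limma, log2 fold change -1.06 with an SE of 0.21, adjusted p = 0.00814). Levels in BE(2)-C were 11.20, 11.33 and 10.88 with JQ1, against 11.11, 11.60 and 11.70 with DMSO, which overlapped (log2 fold change -0.33, adjusted p = 0.586). The Kelly call held without any single array, though over all probe sets it was lost without Kelly DMSO-1 (0.0613), DMSO-2 (0.06) or JQ1-2 (0.0541). It rested on a probe set whose suffix marks possible reading of related transcripts. The other SNRPE probe set lay near background at 4.97 with changes of -0.19 and -0.05, and the call was lost with the mean of both (-0.62, adjusted p = 0.09995).

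SNRPF, also a protein of the Sm ring, passed in the average and not within a line. In Kelly it lay at 12.08, 11.9995 and 11.81 with JQ1, against 12.34, 12.44 and 12.16 with DMSO. Levels in BE(2)-C were 11.51, 11.44 and 11.48 with JQ1, against 11.88, 12.19 and 11.90 with DMSO. All JQ1 arrays were lower than all DMSO arrays of their line, and the average log2 fold change was -0.43 (limma, with an SE of 0.11, adjusted p = 0.019). SNRPC, the U1-C protein that helps U1 hold the 5' splice site, lay at 12.01, 11.98 and 11.71 in Kelly with JQ1, against 12.53, 12.41 and 12.29 with DMSO. Its BE(2)-C values were 11.71, 11.68 and 11.75 with JQ1, against 11.92, 12.11 and 11.94 with DMSO. Its groups did not overlap in either line, and the average log2 fold change was -0.39 (limma, with an SE of 0.10, adjusted p = 0.0245). With its probe sets averaged it was -0.18 (0.485), and with the brightest one free of an _s_at or _x_at suffix it turned to 0.029 (0.963). SNRPF did not pass with either reading (-0.40 and -0.48, adjusted p = 0.076 and 0.25). SNRPF and SNRPC were named after their values were seen. The SNRPF call was lost without Kelly DMSO-1, BE(2)-C DMSO-2 or BE(2)-C JQ1-2 (adjusted p of 0.0529 to 0.0623), and the SNRPC call without Kelly DMSO-1, BE(2)-C DMSO-2 or BE(2)-C JQ1-1 or 2 (0.066 to 0.0784). Over all alternatives these adjusted p-values spanned 0.00432 to 0.25 for SNRPF and 0.0066 to 0.963 for SNRPC.

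The other Sm proteins did not pass, though SNRPB did in the average with the control signal in the fit (limma, -0.37, adjusted p = 0.0478). SNRPD1 had average log2 fold changes of -0.45, SNRPD3 of -0.31 and SNRPB of -0.29, while SNRPG (-0.01) and SNRPD2 (0.07) lay near 0. SNRPD1 was read by 2 further probe sets with changes of -1.25 and -0.93 in Kelly and of -0.58 and -0.75 in BE(2)-C, so its probe sets shared a sign and differed in size. The U1 protein SNRPA (-0.18) and the U2 proteins SNRPA1 (-0.20) and SNRPB2 (-0.06) did not pass either. Of the 12 SNRP genes 3 fell in the average, 0 rose and 9 did not pass, and 10 had a negative sign. Of all genes 7.04% fell in the average and 39.5% had a negative sign, as did 49.1% of the genes with a mean of at least 6.

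Among the SF3 genes SF3A3, a subunit of the SF3A complex that joins the U2 snRNP, fell in the average. In Kelly it lay at 10.58, 10.62 and 10.21 with JQ1, against 10.98, 10.96 and 10.70 with DMSO. BE(2)-C cells had 9.36, 9.37 and 9.30 with JQ1, against 9.55, 10.01 and 9.89 with DMSO. The groups did not overlap in either line (average limma, log2 fold change -0.44 with an SE of 0.12, adjusted p = 0.0341). The call was lost without 8 of the 12 arrays in turn, Kelly DMSO-1 or 2, Kelly JQ1-3, BE(2)-C DMSO-2 or 3, or any BE(2)-C JQ1 replicate, with an adjusted p of 0.0541 to 0.10; over all alternatives it spanned 0.00154 to 0.10. SF3B3, a large scaffold subunit of SF3B, had the largest average change of the class, -0.53, without passing (adjusted p = 0.135). With the replicate number as a block it passed in the average (limma adjusted p = 0.0363), as did SF3B4 (-0.44, 0.0418, against 0.0799 without the block). That block pairs the samples of both lines, though residuals paired them in Kelly only. Within Kelly neither gene passed with the block (0.0595 and 0.0716). SF3B3 lay at 8.72, 8.61 and 8.14 in Kelly with JQ1, against 9.47, 9.64 and 8.43 with DMSO, and at 9.17, 9.29 and 9.20 in BE(2)-C with JQ1, against 9.20, 9.88 and 9.67 with DMSO. Of its groups, those of Kelly overlapped through the DMSO array at 8.43 and those of BE(2)-C through the DMSO array at 9.20. SF3B1, the branch-point binding subunit that is recurrently mutated in blood cancers, had Kelly and BE(2)-C log2 fold changes of -0.13 and 0.29. SF3B4 (-0.55 and -0.32), SF3A1 (-0.33 and 0.01), SF3B2 (-0.33 and 0.04), SF3B6 (-0.21 and 0.29), SF3B5 (0.13 and -0.13) and SF3A2 (0.26 and -0.20) did not pass in either line.

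Of the U2AF genes, U2AF2, the subunit that binds the polypyrimidine tract, lay at 11.54, 11.25 and 11.43 in Kelly with JQ1, against 11.13, 11.17 and 11.41 with DMSO. Levels in BE(2)-C were 11.29, 11.28 and 10.9996 with JQ1, against 11.47, 10.95 and 11.21 with DMSO. U2AF1L4, a relative of the small subunit, had Kelly and BE(2)-C log2 fold changes of -0.08 and 0.03. Neither gene passed in any comparison, and their groups overlapped in both lines.

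PRPF38B was the member that rose in BE(2)-C. It lay at 10.16, 9.99 and 9.98 with JQ1, against 9.13, 9.30 and 9.40 with DMSO, a 1.70-fold difference without overlap (limma, log2 fold change 0.77 with an SE of 0.19, adjusted p = 0.0422). In Kelly it lay at 10.9993, 10.68 and 10.69 with JQ1, against 10.16, 10.74 and 10.00 with DMSO (log2 fold change 0.49, adjusted p = 0.16), and the average was 0.63 (SE 0.14, adjusted p = 0.00977). The BE(2)-C call was lost without any 1 of 9 arrays, all 6 of BE(2)-C, Kelly DMSO-1, Kelly JQ1-1 and Kelly JQ1-2, with an adjusted p of 0.0501 to 0.181, and over all alternatives it spanned 0.00219 to 1. Both other PRPF38B probe sets went the other way, with log2 fold changes of -0.41 and -0.27 in Kelly and of -0.27 and -0.25 in BE(2)-C, and neither passed. The direction of PRPF38B therefore depended on the probe set read.

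The tri-snRNP protein PRPF4 lay below its DMSO arrays in Kelly, at 9.07, 8.69 and 8.09 with JQ1, against 9.12, 9.16 and 9.11 with DMSO, without passing (log2 fold change -0.51, adjusted p = 0.179). PRPF8, the core tri-snRNP protein at the catalytic centre (-0.31 in Kelly, -0.04 in BE(2)-C), PRPF31 (-0.19 and -0.02), PRPF3 (0.06 and -0.01) and PRPF6 (-0.44 and 0.32) did not pass. The ubiquitin ligase PRPF19 (-0.34 and -0.38), PRPF38A (-0.55 and 0.33), PRPF18 (-0.36 and 0.39), PRPF39 (0.41 and 0.21) and PRPF40B (0.15 and -0.09) did not pass either. Of the 11 PRPF genes 6 had a negative average, against 39.5% of all genes and 49.1% of those with a mean of at least 6.

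Among the SR genes SRSF8, an SR protein gene closely related to SRSF2, fell in the average. In Kelly it lay at 7.12, 6.63 and 6.66 with JQ1, against 7.57, 8.02 and 7.74 with DMSO, with no overlap. BE(2)-C showed 7.56, 7.74 and 6.83 with JQ1, against 7.33, 7.97 and 8.50 with DMSO, which overlapped. The average log2 fold change was -0.76 (limma, with an SE of 0.21, adjusted p = 0.0351), the largest of any member in that comparison. It was lost without 8 of the 12 arrays in turn, Kelly DMSO-1 or 2, Kelly JQ1-2 or 3, BE(2)-C DMSO-2 or 3, or BE(2)-C JQ1-1 or 3 (adjusted p of 0.0545 to 0.0863), and with the replicate number as a block (0.0635); the lowest adjusted p over the alternatives was 0.00441. Its control signal slope was -0.30, and with that signal in the fit the average was -0.58.

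SRSF4 had the next largest average among the SR genes, -0.51, with a wide spread. It lay at 9.06, 8.75 and 7.86 in Kelly with JQ1, against 9.68, 10.06 and 8.53 with DMSO (log2 fold change -0.87, SE 0.40, adjusted p = 0.228), and at 8.90, 9.21 and 8.69 in BE(2)-C with JQ1, against 8.44, 9.35 and 9.45 with DMSO. The low arrays of each group were those of high control signal, and the slope of SRSF4 on that signal was -0.43. SRSF2, which binds exonic enhancers, had Kelly and BE(2)-C log2 fold changes of -0.45 and -0.42 with a slope of -0.50.

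SRSF1, the founding SR protein, lay at 11.72, 11.83 and 11.59 in BE(2)-C with JQ1, against 11.99, 12.55 and 12.42 with DMSO. These groups did not overlap, and the change did not pass (limma, log2 fold change -0.61 with an SE of 0.19, adjusted p = 0.0932). With the control signal added to the fit, SRSF1 passed in BE(2)-C (-0.58, adjusted p = 0.00908) and in the average (-0.34, 0.0253). Among the others SRSF5 was above DMSO in BE(2)-C without overlap (0.50, adjusted p = 0.586), and SRSF11 was above DMSO in Kelly without overlap (0.32, adjusted p = 0.26). SRSF5 also passed with that signal in the fit, as higher in BE(2)-C (0.57, adjusted p = 0.02) and in the average (0.40, 0.0186). SRSF12 (-0.40 in Kelly and -0.52 in BE(2)-C), SRSF6 (-0.50 and -0.08), SRSF10 (-0.41 and -0.26), SRSF9 (-0.32 and -0.03), SRSF3 (-0.10 and -0.17) and SRSF7 (-0.04 and -0.25) did not pass. Of the 12 SR genes 1 fell in the average, against 7.04% of all genes, 0 rose and 10 had a negative sign. That sign was held by 39.5% of all genes and 49.1% of those with a mean of at least 6.

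Among the hnRNP genes HNRNPLL, known from T cells as a regulator of CD45 splicing, rose in the average. It lay at 11.22, 11.27 and 10.94 in Kelly with JQ1, against 10.89, 10.85 and 10.75 with DMSO. Its BE(2)-C values were 11.26, 11.19 and 11.19 with JQ1, against 10.61, 10.74 and 10.85 with DMSO. Every JQ1 array was above every DMSO array of its line, and the average log2 fold change was 0.40 (limma, with an SE of 0.10, adjusted p = 0.0235). That call was lost without 6 of the 12 arrays in turn, Kelly DMSO-1, Kelly JQ1-1 or 2, BE(2)-C DMSO-2, or BE(2)-C JQ1-1 or 2 (adjusted p of 0.0507 to 0.0703), and over all alternatives the adjusted p spanned 0.00154 to 0.123. Its probe sets at mean levels of 9.53 and 8.86 also had positive changes in both lines, between 0.13 and 0.62. With all 5 of its probe sets averaged the change was 0.25 and did not pass (limma adjusted p = 0.123).

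HNRNPH3 had the largest average change of the class, -0.64, and did not pass (limma adjusted p = 0.114). It lay at 10.16, 10.00 and 9.61 in Kelly with JQ1, against 10.58, 11.10 and 9.92 with DMSO, and at 10.64, 10.97 and 10.10 in BE(2)-C with JQ1, against 10.62, 11.49 and 11.63 with DMSO. Its groups overlapped in both lines and its slope on the control signal was -0.39. With that signal added to the fit, it passed in BE(2)-C (-0.59, adjusted p = 0.0024) and in the average (-0.40, adjusted p = 0.00281).

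The remaining hnRNP genes did not pass in either line. HNRNPA1, which competes with SR proteins at many exons, had a log2 fold change of -0.12 in each line, and HNRNPC, which binds uridine tracts, -0.12 in Kelly and 0.11 in BE(2)-C. HNRNPK, which binds cytidine-rich RNA, had 0.33 and 0.05. HNRNPL (-0.61 and 0.02), HNRNPM (-0.33 and -0.20), HNRNPDL (-0.30 and -0.18), HNRNPD (-0.26 and -0.29) and HNRNPA0 (-0.22 and -0.07) had negative values in Kelly. HNRNPF (-0.10 and -0.19), HNRNPU (-0.10 and -0.09), HNRNPA3 (-0.05 and -0.01), HNRNPR (-0.02 and -0.05), HNRNPA2B1 (-0.02 and -0.38) and HNRNPUL1 (0.01 and -0.15) stayed within 0.2 of 0 in Kelly, as did HNRNPAB (0.08 and -0.36), HNRNPH1 (0.09 and -0.02) and HNRNPUL2 (0.12 and 0.19).

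**Figure D3:**
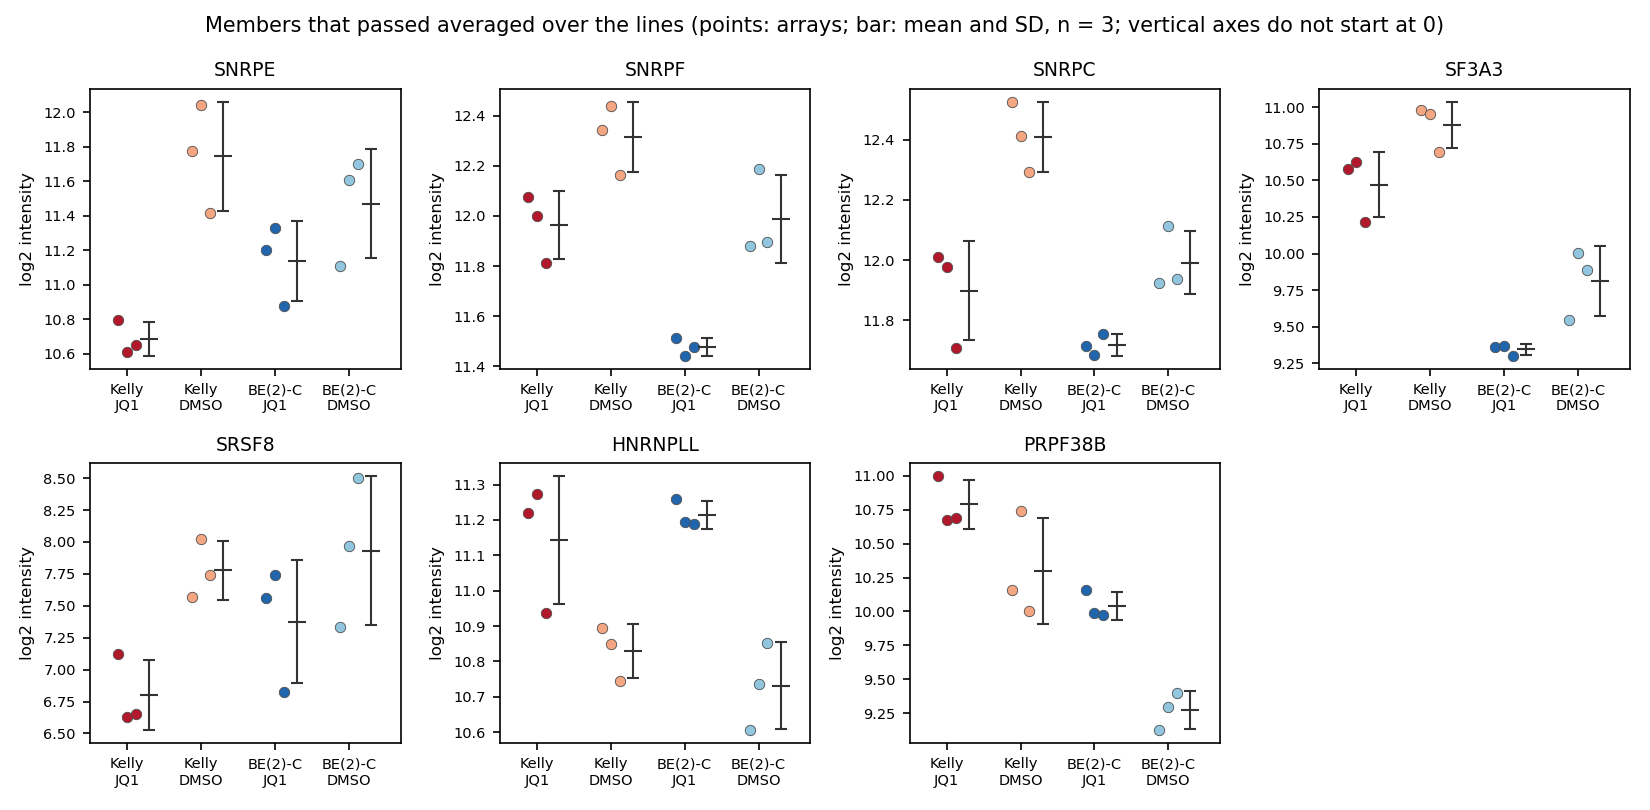
Log2 intensity of each array for the 7 members that passed averaged over the lines, by line and treatment, with the mean and SD of the 3 arrays beside the points. SNRPF, SNRPC, SF3A3 and HNRNPLL show no overlap of JQ1 and DMSO arrays in either line, while SNRPE and SRSF8 overlap in BE(2)-C and PRPF38B overlaps in Kelly.

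Since 51 members are read by several probe sets, all 44988 probe sets were also tested, with p-values adjusted over them. In Kelly 4 member probe sets fell and 0 rose, against 4.35% of all probe sets (0.958% higher, 3.39% lower). In BE(2)-C 2 fell and 0 rose, against 2.81% (1.25% higher, 1.56% lower). Those that fell read HNRNPD, HNRNPF, SNRPE and SF3A3 in Kelly, and HNRNPD and SRSF1 in BE(2)-C. The HNRNPD probe set was the one that fell in both lines. The Kelly count was 1 without Kelly DMSO-1, 2 without Kelly DMSO-2, 15 without Kelly DMSO-3 and 7 without BE(2)-C DMSO-1. The BE(2)-C count was 5 without Kelly JQ1-3 and 1 without BE(2)-C DMSO-2 or 3 or BE(2)-C JQ1-2 or 3.

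HNRNPD encodes AUF1, which binds AU-rich elements and acts on the stability of the RNAs that carry them. The probe set of mean level 9.35 lay at 8.98, 8.87 and 8.45 in Kelly with JQ1, against 9.99, 9.96 and 9.82 with DMSO. BE(2)-C cells had 8.70, 8.71 and 8.47 with JQ1, against 9.88, 10.26 and 10.08 with DMSO. No JQ1 array overlapped a DMSO array of its line, and the log2 fold changes were -1.15 in Kelly (limma, with an SE of 0.17, adjusted p = 0.00236) and -1.44 in BE(2)-C (SE 0.17, adjusted p = 0.001). Both calls held in all 19 alternatives, with an adjusted p of at most 0.0321 in Kelly and 0.00906 in BE(2)-C. The brightest HNRNPD probe set, which stood for the gene in the counts above, lay at 11.99, 11.74 and 12.11 in Kelly with JQ1, against 12.25, 12.49 and 11.86 with DMSO, which overlapped. The 4 probe sets between them in level had log2 fold changes between -0.34 and -0.63 in Kelly and between -0.33 and -0.67 in BE(2)-C, and 2 near background had values of mixed sign. Which HNRNPD transcripts each probe set reads was not looked up, as no probe map was used here.

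The SF3A3 probe set at 9.42 lay at 9.77, 9.80 and 8.96 in Kelly with JQ1, against 10.45 on all 3 DMSO arrays (limma, log2 fold change -0.94 with an SE of 0.21, adjusted p = 0.0275), and at 8.56, 8.60 and 8.20 in BE(2)-C with JQ1, against 9.15, 9.26 and 9.36 with DMSO (-0.80, adjusted p = 0.0724). It had the same sign as the brightest SF3A3 probe set in both lines, and its Kelly call was lost without Kelly DMSO-1 (0.10) or 2 (0.0888), within 0.0147 to 0.125 over its alternatives. The SRSF1 probe set at 9.66 lay at 9.11, 8.94 and 8.50 in BE(2)-C with JQ1, against 9.83, 9.48 and 9.64 with DMSO (limma, -0.80 with an SE of 0.17, adjusted p = 0.0256). In Kelly it lay at 10.03, 10.08 and 10.08 with JQ1, against 10.10, 10.07 and 10.00 with DMSO, a log2 fold change of 0.01. The other 5 SRSF1 probe sets had negative log2 fold changes in both lines, from -0.24 to -0.73 in Kelly and from -0.43 to -0.79 in BE(2)-C. The SRSF1 call was lost without BE(2)-C DMSO-1, 2 or 3 or BE(2)-C JQ1-2 or 3 (adjusted p of 0.0557 to 0.0894), with the replicate block (0.0501) and with the 6 BE(2)-C arrays alone (0.0896), within 0.00447 to 0.0896 over its alternatives. The HNRNPF probe set at 7.70 fell in Kelly by 0.72 on the log2 scale (limma, with an SE of 0.17, adjusted p = 0.0377), but it did not pass with the replicate number as a block (0.0576) or in 11 others, among them without Kelly DMSO-1 or -2, Kelly JQ1-2 or -3, BE(2)-C DMSO-2 or any BE(2)-C JQ1 array. HNRNPF had 6 other probe sets with Kelly log2 fold changes of -0.10 to -0.93.

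HNRNPA2B1, which binds many pre-mRNAs and is close to HNRNPA1, had probe sets of opposite sign. The one at 9.10 lay at 9.57, 9.21 and 9.68 in Kelly with JQ1, against 8.47, 9.39 and 7.89 with DMSO, and at 9.75, 9.85 and 9.44 in BE(2)-C with JQ1, against 8.03, 8.98 and 8.94 with DMSO. Its groups overlapped in Kelly and not in BE(2)-C. It passed in the average (limma, log2 fold change 0.97 with an SE of 0.25, adjusted p = 0.0328) and in neither line. The brightest HNRNPA2B1 probe set had an average of -0.20. Averaged over the lines 4 member probe sets rose and 11 fell, against 7.53% of all probe sets (2.47% higher and 5.07% lower). There were 0 members with probe sets that passed in opposite directions in Kelly, in BE(2)-C or in the average.

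**Figure D4:**
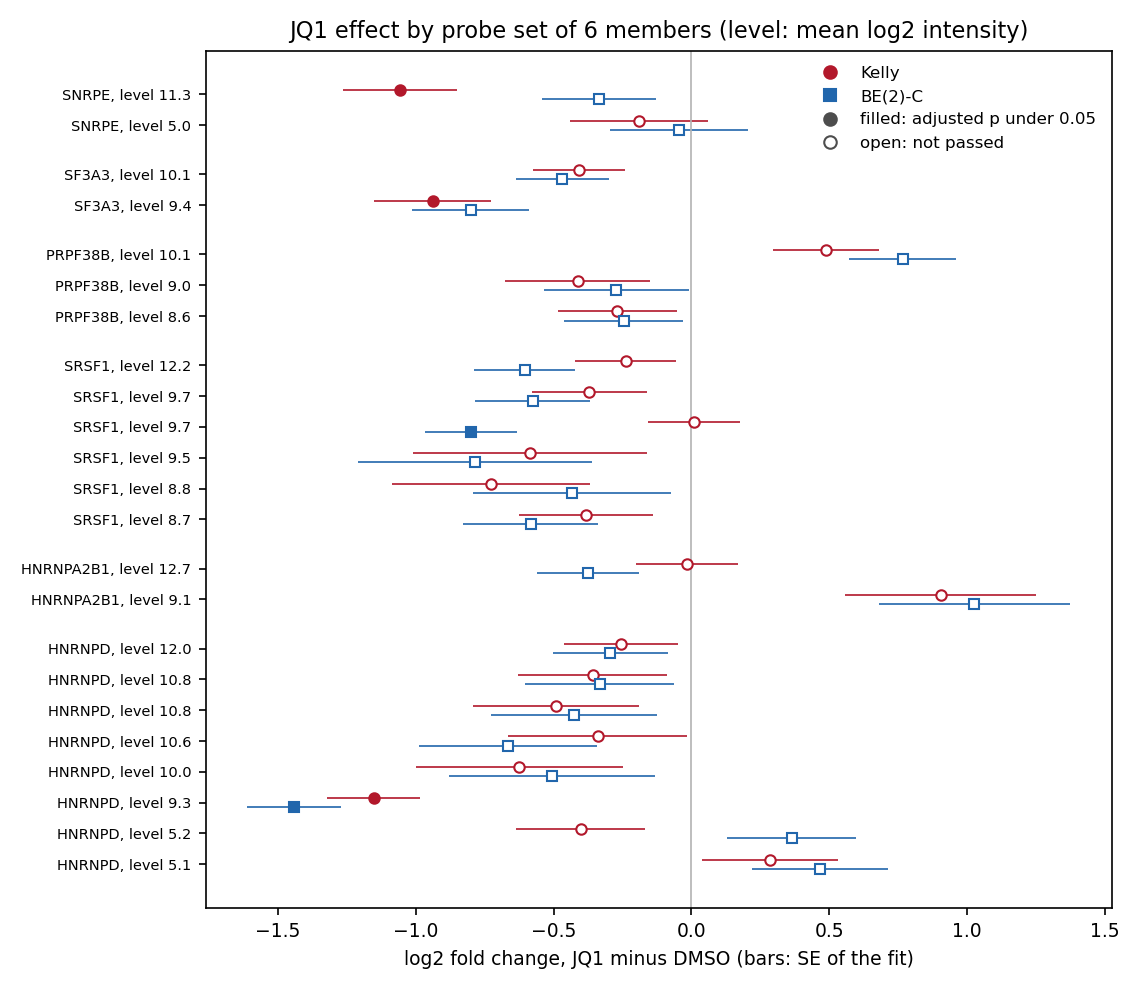
Log2 fold change of JQ1 minus DMSO for every probe set of 6 members in Kelly (circles) and BE(2)-C (squares), with the SE of the fit; rows run from the highest to the lowest mean level within a gene, and filled symbols passed over all probe sets. The HNRNPD probe set at 9.3 stands apart at -1.15 and -1.44, and PRPF38B and HNRNPA2B1 each have probe sets on both sides of 0.

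Whether JQ1 acted differently in the lines was tested directly, as the BE(2)-C effect minus the Kelly effect. The difference passed in 0 of 68 members, against 0.557% of all genes (0.441% higher, 0.116% lower), and 2 members had an unadjusted p under 0.05. The largest differences were those of PRPF38A (limma, 0.88 with an SE of 0.37, adjusted p = 0.401), PRPF6 (0.75, adjusted p = 0.51), PRPF18 (0.74, adjusted p = 0.685) and SNRPE (0.73, SE 0.29, adjusted p = 0.391). PRPF38A lay at 8.59, 8.84 and 8.62 in BE(2)-C with JQ1, against 7.87, 8.58 and 8.60 with DMSO, and at 8.83, 8.64 and 7.91 in Kelly with JQ1, against 9.16, 9.16 and 8.72 with DMSO. The fall of SNRPE in Kelly and its smaller value in BE(2)-C were thus not shown to differ. The count of 0 held in all 20 alternatives.

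More members differed between the lines themselves. A measure of RNA quality moved with line: the 3' signal of ACTB less its 5' signal was 0.63 to 1.24 on the BE(2)-C arrays and 1.24 to 2.24 on the Kelly arrays (log2), and its part in the line differences was not tested. Under DMSO 6 members were lower in BE(2)-C than in Kelly and 1 was higher, against 15.1% of all genes (7.2% higher, 7.89% lower). PRPF4, which binds the U4/U6 snRNP, was the higher one. It lay at 10.18, 10.30 and 10.49 in BE(2)-C, against 9.12, 9.16 and 9.11 in Kelly (limma, log2 fold change 1.19 with an SE of 0.21, adjusted p = 0.00165). Its other 2 probe sets had 1.79 and 1.57 and passed as well. Lower in BE(2)-C were HNRNPA3, a relative of HNRNPA1, at 10.96, 10.80 and 11.05, against 12.02, 12.33 and 12.05 in Kelly (-1.20, adjusted p = 8.56e-05), and the SF3A subunit SF3A1, at 9.84, 9.87 and 9.99, against 10.98, 10.90 and 11.04 in Kelly (-1.07, adjusted p = 0.000789). SF3A3 was also lower, at 9.55, 10.01 and 9.89, against 10.98, 10.96 and 10.70 in Kelly (-1.07, adjusted p = 0.000769), and its other probe set had -1.19. PRPF38B (-1.03, adjusted p = 0.00258), HNRNPR, which associates with neuronal mRNAs (-0.70, adjusted p = 0.0175), and the SR-related SRSF11 (-0.60, adjusted p = 0.0241) were lower as well. The calls of SF3A1, SF3A3 and PRPF4 held in all 20 alternatives. Those of HNRNPA3 and PRPF38B held without any single array and were lost with another reading of their probe sets, since 2 of 4 HNRNPA3 probe sets had values near 0 (-0.08 and 0.12), as did 1 of 3 for PRPF38B (-0.04). Those of HNRNPR and SRSF11 were lost without Kelly DMSO-3 or BE(2)-C DMSO-2, HNRNPR also without Kelly DMSO-1 and SRSF11 without Kelly DMSO-2. Both were lost with another reading of their probe sets too, HNRNPR at -0.49 with the mean and -0.36 with the brightest probe set free of an _s_at or _x_at suffix (adjusted p = 0.13 and 0.745), and SRSF11 at -0.63 and -0.19 (0.0573 and 0.765).

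Under JQ1 9 members were lower in BE(2)-C than in Kelly and 1 was higher, against 23.3% of all genes (12.9% higher, 10.4% lower). PRPF4 was again the higher one, at 10.33, 10.41 and 10.20 in BE(2)-C, against 9.07, 8.69 and 8.09 in Kelly (limma, log2 fold change 1.69 with an SE of 0.21, adjusted p = 0.000101). SNRPB, which encodes the Sm proteins B and B', lay at 11.85, 11.58 and 12.24 in BE(2)-C, against 13.04, 13.11 and 12.64 in Kelly (-1.04, SE 0.21, adjusted p = 0.00328). All 9 SNRPB probe sets had negative values, from -0.43 to -1.16. HNRNPA3 (-1.16), SF3A3 (-1.13), SRSF11 (-0.76), PRPF38B (-0.75), SF3A1 (-0.73) and HNRNPR (-0.72) were lower as under DMSO, PRPF38B not without Kelly JQ1-1 or BE(2)-C JQ1-2 (adjusted p = 0.0519 and 0.0574). With the mean of the probe sets the calls of HNRNPA3 (-0.41), SRSF11 (-0.35), PRPF38B (-0.28), SF3A1 (-0.43) and HNRNPR (-0.16) were lost, with an adjusted p of 0.112 to 0.544. With the brightest probe set free of a suffix HNRNPA3 turned to 0.015, and SRSF11 (-0.15), PRPF38B (-0.018) and HNRNPR (-0.27) did not pass. SF3A3 passed with both readings. HNRNPA2B1 (-0.58) and SNRPF (-0.48) were lower here too, and these calls were lost without 8 and 6 of the 12 arrays in turn, any Kelly JQ1 or BE(2)-C JQ1 array among them for HNRNPA2B1 and Kelly JQ1-1 or -2 or any BE(2)-C JQ1 array for SNRPF; both were also lost with either other reading of their probe sets, where HNRNPA2B1 turned to 0.19 without a suffix and SNRPF had -0.028. The 2 line comparisons use different arrays. Under JQ1 the groups did not overlap for 18 members lower and 14 higher in BE(2)-C, against 29.3% and 20.6% of all genes. SRSF5 had probe sets that passed in opposite directions under JQ1, -0.70 for the one at 10.86 (limma adjusted p = 0.0129) and 0.88 for the one at 6.35 (0.0392), and its other 9 did not pass.

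**Figure D5:**
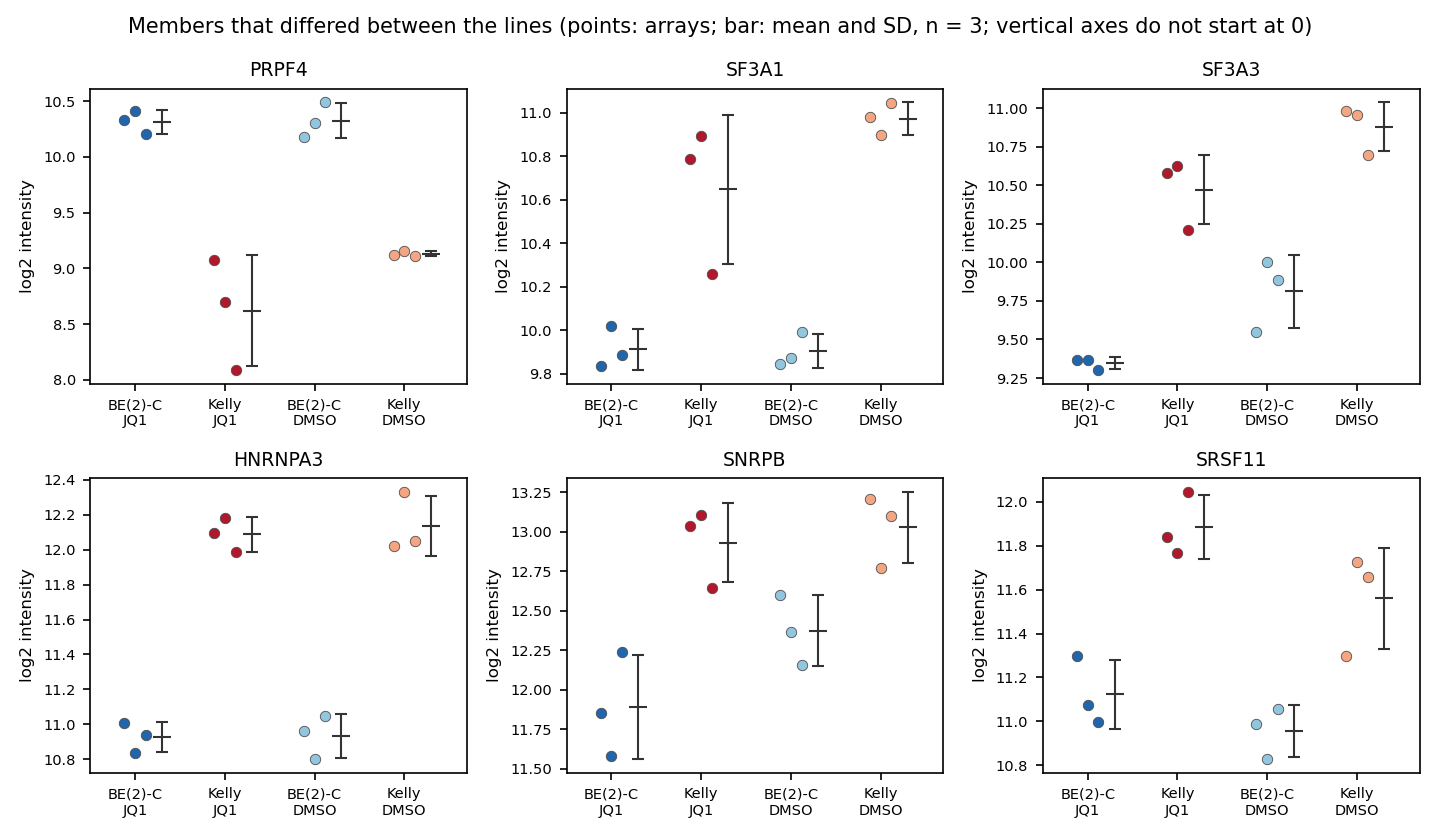
Log2 intensity of each array for 6 members that differed between the lines, with BE(2)-C left of Kelly under JQ1 and then under DMSO, and the mean and SD of the 3 arrays beside the points. PRPF4 is higher in BE(2)-C (10.18 to 10.49) than in Kelly (8.09 to 9.16), and SF3A1, SF3A3 and HNRNPA3 are lower in BE(2)-C on all arrays of either treatment.

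Other genes of splicing, outside the naming rule, were counted for context. Of 62 measured core spliceosome genes 4 fell in Kelly and 0 rose, a share close to the 4.73% of all genes, 1 fell in BE(2)-C and 7 fell in the average (2.51% and 7.04% of all genes). The list holds 2 called genes that are not spliceosome components: LSM1, of the cytoplasmic Lsm ring that acts in mRNA decay, and LSM10, of the U7 snRNP that acts on histone pre-mRNA and which passed in the average. PPIL1, a peptidyl-prolyl isomerase of the activated spliceosome, lay at 9.85, 9.79 and 9.20 in Kelly with JQ1, against 10.82, 10.86 and 10.30 with DMSO (log2 fold change -1.05, limma adjusted p = 0.0137). LSM1 (-0.93), CWC27 (-0.71) and LSM3 (-0.53) also fell in Kelly, LSM3 being named after its value was seen. The PPIL1 call was lost without Kelly DMSO-1 or -2 (adjusted p = 0.0733 and 0.0632), and the others without 4 to 9 of the arrays in turn. With the replicate number as a block the calls of CWC27 and LSM3 were lost (adjusted p = 0.0508 and 0.0641). In BE(2)-C the helicase DDX39A, which takes part in mRNA export, lay at 10.88, 10.82 and 10.99 with JQ1, against 12.27, 11.92 and 12.08 with DMSO (-1.19, limma adjusted p = 0.00987). Its call was lost without BE(2)-C JQ1-1 or -2 (0.0516 and 0.0502). Of these 62 genes 55 were negative in Kelly, with a median of -0.29, against 40.6% of all genes and 53.3% of those with a mean of at least 6. In BE(2)-C 43 were negative, with a median of -0.15, against 51.6% and 49.0%. These counts and medians were not taken with the control signal in the fit, so its part in them was not tested.

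Of 15 measured snRNP assembly genes 0 passed in Kelly, 1 fell in BE(2)-C and 6 fell in the average, with 7.04% of all genes lower there. GEMIN5, the subunit of the SMN complex that recognises snRNAs, lay at 8.52, 8.64 and 8.54 in BE(2)-C with JQ1, against 9.55, 9.67 and 9.48 with DMSO (log2 fold change -0.998, limma adjusted p = 0.0213). That call was lost without BE(2)-C DMSO-2 or -3 or any BE(2)-C JQ1 array (adjusted p of 0.0518 to 0.0948). In Kelly it lay at 9.06, 9.29 and 8.26 with JQ1, against 9.62, 9.72 and 9.53 with DMSO (-0.75, adjusted p = 0.0621). PRMT5, which methylates Sm proteins before they are loaded, fell in the average by 0.65 on the log2 scale (limma adjusted p = 0.012), and COIL, the Cajal body protein coilin, by 0.83 (adjusted p = 0.0165). GEMIN6 (-0.75), SNUPN (-0.57) and DDX20 (-0.41) fell there too, and these were lost without 8 to 10 of the arrays in turn. The average calls of GEMIN5, PRMT5 and COIL held in all 20 alternatives. The 5 beside GEMIN5 were named after their values were seen.

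Of 24 measured SR protein kinases and related genes 1 rose in Kelly, 2 rose in BE(2)-C and 0 fell in either line, while 1.76% of all genes rose in Kelly and 2.18% in BE(2)-C. RSRP1, an arginine- and serine-rich protein, lay at 9.26, 9.38 and 9.20 in Kelly with JQ1, against 8.11, 8.51 and 8.30 with DMSO (log2 fold change 0.97, limma adjusted p = 0.0114). Levels in BE(2)-C were 9.10, 9.42 and 9.25 with JQ1, against 8.19, 7.82 and 8.64 with DMSO (1.03, adjusted p = 0.0109). CLK2, a kinase that phosphorylates SR proteins, lay at 10.16, 10.16 and 10.19 in BE(2)-C with JQ1, against 9.75, 9.54 and 9.61 with DMSO (0.53, adjusted p = 0.038), a call that was lost in 13 of 21 alternatives. Neither gene's groups overlapped in the lines given. The RSRP1 calls were lost without Kelly DMSO-1 or JQ1-2 in Kelly (0.0677 and 0.0506), with its probe sets averaged there (0.71, adjusted p = 0.179) and with the brightest one free of a suffix (0.45, 0.611), and without BE(2)-C DMSO-2 or JQ1-2 in BE(2)-C (0.0549 and 0.0632).

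Of 25 other RNA-binding regulators of splicing 1 fell in Kelly, 0 passed in BE(2)-C and 1 fell in the average, shares near or below the 4.73% of all genes lower in Kelly and the 7.04% lower in the average. PTBP2, the neuronal relative of PTBP1 that holds back a late neuronal splicing programme, lay at 7.14, 7.15 and 6.65 in Kelly with JQ1, against 8.06, 8.61 and 7.91 with DMSO (log2 fold change -1.22, limma adjusted p = 0.0253). Levels in BE(2)-C were 7.98, 7.88 and 7.28 with JQ1, against 7.06, 7.76 and 8.12 with DMSO, which overlapped. The PTBP2 call was lost without Kelly DMSO-1 or -2 or JQ1-2 or -3 (adjusted p of 0.0567 to 0.113), and the change was -0.27 (0.432) with the brightest probe set free of a suffix. ELAVL1, the widely expressed HuR protein, passed in the average (-0.89, adjusted p = 0.0299), though not without 8 of the arrays in turn, nor with its probe sets averaged (-0.20, 0.512). Of 25 tissue-restricted regulators 3 fell in Kelly, CELF2 (-1.99), RBM20 (-0.68) and the neuronal ELAVL4 (-0.64), and 0 passed in BE(2)-C, with 4.73% of all genes lower in Kelly. CELF2 turned to 1.09 with the brightest probe set free of a suffix (adjusted p = 0.0544). RBM20, known from heart as a regulator of titin splicing, lay at 8.49, 8.28 and 8.21 in Kelly with JQ1, against 8.90, 8.97 and 9.15 with DMSO. The RBM20 call was lost with quantile normalization (adjusted p = 0.16) and with the 6 Kelly arrays alone (0.096), and that of ELAVL4 in 9 of 21 alternatives.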

How the data were processed

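Total RNA from 12 samples was hybridised to Affymetrix PrimeView arrays. The values are intensity on a linear scale, made by the authors with RMA per the submitters' processing notes, a method that in general combines background correction, normalization across arrays and a summary of probes, in a version no source used here gives. Array medians of 61.4 to 67.3 show nearly equal scale, so a shift of total RNA would not be seen. Log2 was taken here, with no offset, filter or floor, since 0 values were at or below 0.

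Of 49395 probe sets, 102 were controls, 44988 named 1 gene, 1832 several and 2473 none. The probe set with the highest mean stood for a gene, 18132 in all. Genes were fitted by limma 3.58.1 (R 4.3.3; 4 group means over 12 arrays, eBayes without trend); p-values are two-sided, adjusted by Benjamini-Hochberg over all genes with a threshold of 0.05. The fits were tested on simulated data. Noise there was drawn independently for each gene and array, so that test does not cover the shared control signal seen here. Sequences are from RefSeq (GRCh38.p14).

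The members and the lists of other splicing genes and markers were chosen with earlier results of these data known. Named by rule were members passing in a line or in the difference, otherwise the 2 of a class with the largest average, the passing members between the lines under DMSO and the largest passing members of each list; members passing in the average or under JQ1 between the lines were named after their values were seen. Residuals of same-numbered JQ1 and DMSO samples correlated at 0.434, 0.228 and 0.515 in Kelly and at -0.0706, 0.527 and -0.744 in BE(2)-C, across genes, so the numbers pair samples in Kelly only by the rule used. The alternatives were averaging each gene's probe sets, the brightest probe set without an _s_at or _x_at suffix, quantile normalization, a mean log2 level of at least 6, a trend and robust prior, the control signal (mean log2 of 9 probe sets) as a covariate, a replicate block, a line's arrays alone, each array left out, and, chosen after seeing the data, the 3 arrays of highest control signal left out. The number of arrays limits the precision.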

Additional observations from a re-analysis of the deposited data

Results flagged for a closer look

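CELF2, an RNA-binding regulator of splicing in brain, muscle and immune cells, passed the test of a difference between the lines in the change with JQ1. It lay at 4.68, 4.65 and 4.79 in BE(2)-C with JQ1, against 4.83, 4.85 and 4.98 with DMSO on the log2 intensity scale, and at 6.20, 6.79 and 6.59 in Kelly with JQ1, against 8.32, 8.81 and 8.41 with DMSO. The BE(2)-C effect minus the Kelly effect was 1.80. The BE(2)-C values lay close to the background medians of 3.91 to 4.55, where a fall could hardly show, so a difference in response is not established. The difference did not pass with the mean of the CELF2 probe sets (0.52, limma adjusted p = 0.335), over a range of 0.00141 to 0.335 for its alternatives, and with the brightest probe set that has no _s_at or _x_at suffix it turned to -1.48.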

How the results depend on the processing

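The number of members past the threshold was small and moved with many settings, and the cause was not tested. The Kelly count, 1, was 5 with quantile normalization (2 higher, 3 lower), 2 with a trend and robust prior, 4 with the control signal as a covariate, 2 with the 6 Kelly arrays alone and 12 without the 3 arrays of highest control signal, and spanned 1 to 5 without single arrays. The BE(2)-C count, 1, was 0 with probe sets averaged per gene, 5 with quantile normalization, 2 with the trend and robust prior, 7 with the covariate, 0 with the replicate block and 12 without the 3 arrays (2 higher, 10 lower), and spanned 0 to 3. The average count, 7, was 2 with probe sets averaged, 11 with the covariate and 26 without the 3 arrays (3 higher, 23 lower), and spanned 2 to 11. With the covariate the counts over all 18132 genes were larger too. They were 881 higher and 1412 lower in Kelly (320 and 858 without it) and 1486 and 1266 in BE(2)-C (395 and 455). In the average they were 1716 and 1967 (729 and 1276). Between the lines they were 2098 and 2702 under DMSO (1305 and 1430), and 2348 and 2237 under JQ1 (2346 and 1883). Members past the threshold with the covariate were SNRPE, SNRPC and SRSF8 lower and PRPF38B higher in Kelly. In BE(2)-C they were SRSF1, HNRNPH3, SNRPF and SF3A3 lower, and SRSF5, HNRNPLL and PRPF38B higher. In the average SNRPB, SRSF1 and HNRNPH3 were added as lower and SRSF5 as higher. The difference stayed at 0 in its 20 alternatives. Between the lines under DMSO the count, 7, was 3 with probe sets that have no _s_at or _x_at suffix, 11 with quantile normalization, 19 with the covariate and 14 without the 3 arrays, and spanned 5 to 9; under JQ1 the count, 10, was 4 with those probe sets, 21 with the covariate and 20 without the 3 arrays, and spanned 7 to 13. Member probe sets, 4 in Kelly and 2 in BE(2)-C, numbered 14 and 34 with the covariate and 47 and 37 without the 3 arrays; in Kelly they were 1 with the Kelly arrays alone, and in BE(2)-C 10 with quantile normalization and 1 with the replicate block. Without single arrays they spanned 1 to 15 and 1 to 5. The array trio left out was Kelly JQ1-3, Kelly DMSO-3 and BE(2)-C DMSO-1. Counts over all genes without that trio are not given here, so the members' counts there have no background beside them. With probe sets free of those suffixes, signs turned for PRPF38B in BE(2)-C (-0.25) and in the average (-0.26), SNRPC in the average (0.029), HNRNPA2B1 (0.19) and HNRNPA3 (0.015) between the lines under JQ1, and CELF2 in Kelly (1.09), in the average (0.36) and in the difference (-1.48). The replicate block, which pairs samples by number, ended 0 further gene calls in Kelly beyond CWC27 and LSM3; among the members it ended the average call of SRSF8 and added SF3B3 and SF3B4, for a count of 8, and it ended the BE(2)-C call of PRPF38B (adjusted p = 0.0723).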

Other observations

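Some spliceosome genes are read only by probe sets that name several genes, so their values are given here without a test. U2AF1, the subunit that binds the AG of the 3' splice site, shares its probe sets with an unnamed near-identical locus. The brighter of the 2 averaged 11.51 ± 0.30 in Kelly with JQ1 and 12.17 ± 1.02 with DMSO (SD, n = 3 each). In BE(2)-C it averaged 12.26 ± 0.40 with JQ1 and 12.54 ± 0.76 with DMSO. The less bright one averaged 10.89 ± 0.19 in Kelly with JQ1 and 11.50 ± 0.72 with DMSO, while BE(2)-C had 11.37 ± 0.25 with JQ1 and 11.69 ± 0.63 with DMSO. Both overlapped in both lines. SNRPN, an Sm protein gene active in neurons that shares its transcript with SNURF, averaged 10.39 ± 0.24 in Kelly with JQ1 and 10.34 ± 0.31 with DMSO, while BE(2)-C had 10.94 ± 0.10 with JQ1 and 10.80 ± 0.13 with DMSO. This was its brightest probe set. The others had log2 fold changes of -0.21 and -0.45 in Kelly and of -0.06 and -0.07 in BE(2)-C. HNRNPH2, read together with a readthrough transcript of RPL36A, averaged 10.70 ± 0.19 in Kelly with JQ1 and 11.03 ± 0.25 with DMSO, while BE(2)-C had 10.87 ± 0.34 with JQ1 and 10.59 ± 0.30 with DMSO. This too was the brightest probe set of its gene. Its others had log2 fold changes of -0.40 and -0.82 in Kelly and of 0.29 and 0.33 in BE(2)-C. The probe set that names ECH1 and HNRNPL lay below DMSO on every JQ1 array of both lines, by 1.27 in Kelly and by 0.34 in BE(2)-C, and the one that names BSCL2 and its readthrough with HNRNPUL2 did so by 0.53 and 0.49. HNRNPL and HNRNPUL2 are also read by probe sets of their own and were tested above. There HNRNPL had -0.61 in Kelly and 0.02 in BE(2)-C, HNRNPUL2 had 0.12 and 0.19, and neither passed.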
